A study of Mus musculus with 4 samples.

Results

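Calmodulin, the calcium/calmodulin-dependent protein kinases (CaM kinases) and the transcription factor CREB with its coactivator were represented by 9 genes, taken by gene name from a table of 22554 genes: Calm2, Calm3, Camk4, Camk2d, Camk2g, Camk1d, Camkk2, Crtc2 and Creb1. Their mRNA was measured by RNA sequencing in pulmonary group 2 innate lymphoid cells (ILC2s), which answer the epithelial alarmin IL-33 with type 2 cytokines. The cells had been sorted from the lungs of BALB/c mice aged 6 weeks and cultured ex vivo overnight, by the labels, with IL-2, IL-7 and IL-33. To this was added either vehicle (2 libraries) or compound 5D (2 libraries), a blocker of the Orai channels of the plasma membrane. IL-2, IL-7 and IL-33 were thus present in both groups, and no library came from unstimulated cells. The sources used here do not say that the libraries of a group came from separate mice or cultures, so the p-values measure the spread between libraries, which may be technical.

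When calcium enters a lymphocyte through Orai channels, it binds calmodulin, a small protein that then wraps around and switches on its target enzymes. One arm runs through the phosphatase calcineurin. The other runs through CaM kinases: CaMKK2 phosphorylates and activates CaMKI and CaMKIV, whereas CaMKII holoenzymes phosphorylate themselves, and CaMKIV in the nucleus can phosphorylate CREB. CRTC coactivators enter the nucleus after dephosphorylation and join CREB on cAMP response elements. All of these switches act on proteins. The libraries measured the mRNA of the genes, not calcium, phosphorylation or CREB binding.

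The question was whether Orai blockade altered how much mRNA ILC2s held for this machinery. No member passed the test. Of the 9 genes, 5 had a fold change above zero and 4 below, the log2 fold changes lay between -0.16 and 0.11, and their median was 0.0019, against -0.0016 over the 17650 genes tested. At an adjusted p under 0.05 (edgeR's quasi-likelihood test, adjusted over all genes tested), 0 of the 9 were called, where 17 genes, or 0.0963% of those tested, were called in all. At an unadjusted p under 0.05 the count was also 0 of 9, with a background of 7.34%, and it was 0 as well by DESeq2 and by limma-voom. Both libraries of one group lay outside the range of the other for 4 of the 9 genes, which is to be read against 37.6% of all tested genes. On the log2 scale the widest 95% intervals of the fold change belonged to Camk2g, from -26.1% to 9.03% when written as percent change, and Camk1d, from -14.2% to 24.3%. Fold changes inside such intervals are not excluded by these libraries. The smallest difference that could have been called was not computed.

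**Figure D1:**
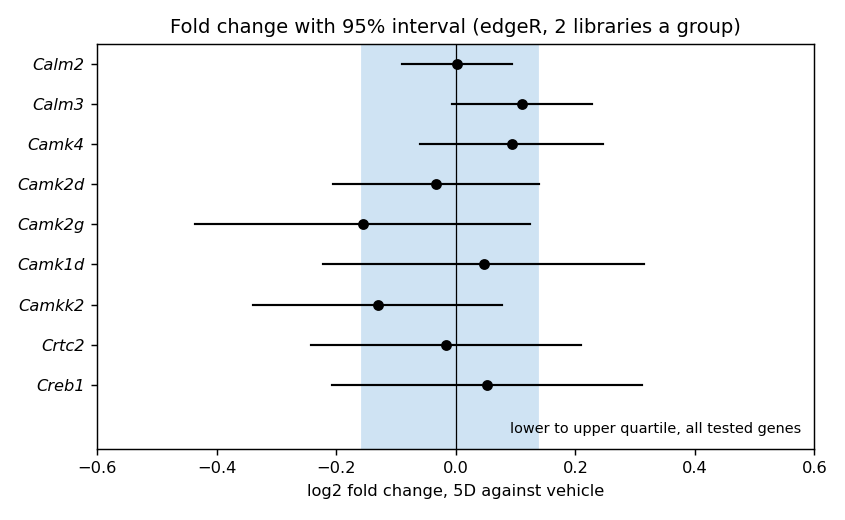
Log2 fold change of 5D against vehicle for the 9 members. Points are edgeR estimates, bars are 95% intervals, and the shaded band spans the lower to the upper quartile of all tested genes (-0.16 to 0.14). Each bar crosses zero.

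The libraries held 20096513 to 28697196 estimated counts, the 2 vehicle libraries being the shallower ones. Levels below are CPM, that is counts scaled to a common library total, after upper-quartile normalization, so that libraries of different depth can be set side by side. All 10 ILC2 markers examined were measured, at a summed 9585 to 10460 CPM, with both 5D libraries below both vehicle libraries. Of the 10, 6 had a fold change below zero and 4 above. Il2ra, at 2221 and 2068 CPM with vehicle and 1771 and 1874 CPM with 5D, and Il5, at 4752 and 4710 against 4377 and 4548 CPM, had the largest differences in CPM of the 10. Gata3, the lineage transcription factor, was at 1091 and 1099 against 1095 and 1108 CPM, and Il1rl1, the IL-33 receptor, and Rora were higher in both 5D libraries than in both vehicle libraries. The 28 markers of other cells found in the table summed to 81.1 to 86.1 CPM, with 22 of them under 3 CPM in every library and 6 at 0 (Cd4, S100a9, Scgb1a1, Krt8, Col1a2 and Pdgfra). Among the higher ones, the endothelial gene Pecam1 was at 23.7 and 21.3 CPM in vehicle and 19.9 and 15.7 CPM with 5D, whereas the T cell gene Cd3g was at 21.6 and 22.2 against 22.5 and 24.6 CPM and the epithelial gene Epcam at 26.1 and 25.5 against 25.5 and 27.7 CPM. Other listed markers of these cells were lower: Cd3e was at 2.76 to 4.13 CPM, Cd3d at 0.25 to 0.52, Trac at 0 to 0.40 and Sftpc at 0 to 0.14. Cdh5, the other endothelial marker, was not in the table. Whether such cells were present was not tested, nor was the part of the marker differences above in the results below. In bulk RNA, fewer cells of a type and less RNA per cell cannot be told apart.

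Mammals make calmodulin from more than one gene, of which Calm2 and Calm3 are described here. On mm10 Calm2 (ENSMUSG00000036438.13) lies at chr17:87433412-87446935 on the minus strand and Calm3 (ENSMUSG00000019370.10) at chr7:16915379-16924114 on the minus strand. Their annotated coding sequences are each 447 bases, or 149 codons with the stop, and translate to proteins with 0 amino acid differences. The coding bases nevertheless differ at 78 positions (82.6% identity), spread over 76 codons, and every one of these leaves the amino acid as it is. Exon 3 is printed below to show this, as coding bases 37 to 177 of each gene, 5′ to 3′ on its own strand, from GENCODE M21 and mm10. Capitals mark the 24 positions of these 141 bases at which the genes differ.
Calm2: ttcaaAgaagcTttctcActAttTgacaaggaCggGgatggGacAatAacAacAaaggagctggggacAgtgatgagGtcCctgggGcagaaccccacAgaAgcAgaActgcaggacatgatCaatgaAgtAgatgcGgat
Calm3: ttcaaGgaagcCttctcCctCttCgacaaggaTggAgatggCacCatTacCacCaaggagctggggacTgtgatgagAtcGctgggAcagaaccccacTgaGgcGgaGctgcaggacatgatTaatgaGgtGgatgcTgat
The longest run shared by the pair in the whole coding sequence was 17 bases. A longer coding read could thus be told apart by these capitals, and the genes were counted on separate rows.

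The Calm2 group means differed by less than the replicates of either group. The gene measured 522.6 and 534.1 CPM in the vehicle libraries and 521.7 and 536.2 CPM in the 5D libraries, so the 5D libraries enclosed the vehicle ones. The mean ± SD of the 2 libraries was 528.3 ± 8.12 CPM with vehicle and 529.0 ± 10.3 CPM under 5D. This gave a log2 fold change of 0.0019 (SE 0.042, adjusted p = 0.997), with the narrowest interval among the members, from -6.05% to 6.72%. Of 2 near-identical pseudogenes in the table, Gm15720 and Gm7308, neither held more than 27 counts in a library, against at least 10688 for Calm2.

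Calm3 was the member nearest to the threshold. Its levels were 172.9 and 179.3 CPM with vehicle and 190.5 and 189.7 CPM with 5D, so both 5D libraries lay above both vehicle libraries. The log2 fold change was 0.11 (SE 0.054, adjusted p = 0.712), with an interval from -0.493% to 17.2%. Calm3 was also the only member whose unadjusted p passed 0.05 under another setting, at 0.045 with TMM normalization in edgeR. A near-identical pseudogene in the table, Gm5881, held at most 22 counts in a library, against at least 3588 for Calm3.

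**Figure D2:**
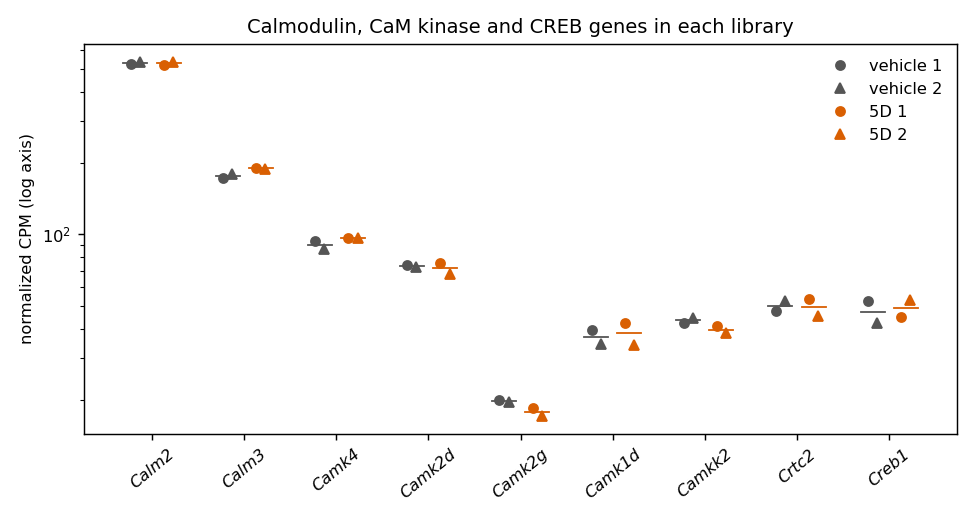
Normalized CPM of each member in the 4 libraries on a log axis (grey, vehicle; orange, 5D; circles, replicate 1; triangles, replicate 2). Short lines are group means. Calm3 and Camk4 are higher, and Camk2g and Camkk2 lower, in both 5D libraries than in both vehicle libraries, by small amounts.

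Camkk2 encodes the kinase at the head of the cascade, which also activates AMPK. Camkk2 (ENSMUSG00000029471.13, chr5:122731170-122779409, minus strand) was measured at 42.4 and 44.4 CPM with vehicle and 40.9 and 38.3 CPM with 5D. Both 5D libraries were lower, yet the log2 fold change of -0.13 (SE 0.095, adjusted p = 0.832) had an interval from -20.9% to 5.48%. Camkk1, the related kinase, was scarcer, at 10.3 and 6.55 CPM with vehicle and 6.67 and 6.58 CPM with 5D, and the groups overlapped.

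Camk4 encodes CaMKIV, the nuclear kinase known for phosphorylating CREB. Camk4 (ENSMUSG00000038128.7, chr18:32934931-33191228, plus strand) was at 93.7 and 86.6 CPM with vehicle and 96.24 and 96.21 CPM with 5D. The 2 5D libraries were nearly identical and lay above both vehicle libraries, which themselves differed by more than the nearer gap between groups. The log2 fold change was 0.09 (SE 0.070, adjusted p = 0.841). An antisense gene, 2310026I22Rik, shares 72 exonic bases with Camk4 but held at most 5 counts in a library.

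Camk1d encodes CaMKI-delta, a cytosolic target of CaMKK. Camk1d (ENSMUSG00000039145.16, chr2:5293457-5714515, minus strand) was at 39.5 and 34.6 CPM with vehicle and 42.4 and 34.2 CPM with 5D. The replicates of each group differed by more than the group means did, which were 37.0 ± 3.47 CPM for vehicle and 38.3 ± 5.78 CPM for 5D (± SD of 2 libraries). Camk1d thus had a log2 fold change of 0.05 (SE 0.12, adjusted p = 0.975). Camk1, a gene of the same subfamily, was at 10.7 to 14.9 CPM over the 4 libraries, with the vehicle pair spanning the 5D pair (log2 fold change 0.03, adjusted p = 0.995), and shares 232 exonic bases with Ogg1 on the opposite strand.

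CaMKII is built as a multi-subunit ring from the products of several genes, and Camk2d (delta) and Camk2g (gamma) were the forms present in amount. Camk2d (ENSMUSG00000053819.16, chr3:126596302-126846326, plus strand) was at 73.9 and 73.0 CPM with vehicle and 75.4 and 68.2 CPM with 5D, so the 5D pair enclosed the vehicle pair. Its log2 fold change was -0.03 (SE 0.079, adjusted p = 0.970). Camk2g (ENSMUSG00000021820.18, chr14:20734875-20794088, minus strand) was at 20.0 and 19.5 CPM with vehicle and 18.4 and 17.1 CPM with 5D. Both 5D libraries were lower, and the log2 fold change of -0.16 (SE 0.13, adjusted p = 0.861) was the furthest below zero among the members. Camk2g was also the member with the fewest counts, 391 to 500 a library.

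Camk2b, the beta form and no member, was far scarcer but differed more in proportion. It had 15 and 14 counts with vehicle and 52 and 45 with 5D, or 0.646 and 0.700 CPM against 1.92 and 1.57 CPM. Both 5D libraries lay above both vehicle libraries, and the log2 fold change was 1.37 (SE 0.45, unadjusted p = 0.0108 and adjusted p = 0.550 by edgeR), so it did not pass either. Leaving out each library in turn gave log2 fold changes of 1.217 to 1.502. Camk2a, the alpha form, was held out of the test at 0 to 6 counts a library. Per kilobase of exon, the Camk2b share of CaMKII mRNA was 1.14 ± 0.083% for vehicle and 3.09 ± 0.228% for 5D (± SD of 2 libraries). The corresponding share of Camk2g was 47.9 ± 0.053% and 45.0 ± 0.578%, and that of Camk2d 50.7 ± 0.345% and 51.8 ± 0.298%. Delta and gamma thus made up nearly the whole family in each library. No permutation of 2 against 2 libraries can give a two-sided exact p below 0.333, so these shares were not tested. An SD of 2 libraries can fall below the counting noise, so the SDs above do not show how precise a share is. Camk2g, at 391 to 500 counts a library, had a log2 fold change of -0.16 with an SE of 0.13 (adjusted p = 0.861), and Camk2b had only 14 to 52 counts. Without division by length, Camk2d held 78.4%, Camk2g 20.2% and Camk2b 1.31% on average, as the annotated exons of Camk2d are much longer. Per kilobase of the longest annotated transcript, Camk2d was at 13.2 and Camk2g at 5.07 CPM. The near-equal shares of delta and gamma therefore depended on the length used.

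Creb1 encodes the transcription factor on which the cascade ends and Crtc2 a coactivator that joins it. Creb1 (ENSMUSG00000025958.14, chr1:64532645-64604548, plus strand) was at 52.1 and 42.1 CPM with vehicle and 44.9 and 52.9 CPM with 5D. Replicates of a group differed by 1.24 times with vehicle and 1.18 times with 5D, and the group means, 47.1 ± 7.12 CPM for vehicle and 48.9 ± 5.68 CPM for 5D (± SD of 2 libraries), were closer than that. Creb1 had a log2 fold change of 0.05 (SE 0.12, adjusted p = 0.965). Crtc2 (ENSMUSG00000027936.18, chr3:90254163-90264125, plus strand) was at 47.4 and 52.4 CPM with vehicle and 53.2 and 45.3 CPM with 5D, again with overlapping groups. Its log2 fold change was -0.02 (SE 0.10, adjusted p = 0.994), and the interval ran from -15.5% to 15.6%.

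Between genes, levels can be set side by side only per length. Mean normalized CPM per kilobase of exon over the 4 libraries ordered the genes as Calm2 (360.4), Calm3 (75.6), Camk4 (28.6), Crtc2 (12.1), Camk1d (5.07), Camkk2 (3.80), Creb1 (3.49), Camk2d (3.23) and Camk2g (2.93). The range over libraries of each gene down to Camk1d was clear of the next. From Camkk2 to Camk2g the ranges of neighbours overlapped, although that of Camkk2 was clear of those of Camk2d and Camk2g. Calm2 stood at percentile 99.3 of all tested genes, and Camk4, the highest of the kinases among the members on this scale, at 87.4, whereas Camk2g stood at 51.7. Division by the longest annotated transcript in place of all exons raised Camk2d to 13.2, above Camkk2 at 8.53, Creb1 at 5.74, Camk1d at 5.41 and Camk2g at 5.07 CPM per kilobase, but left Calm2 at 438.7, Calm3 at 80.0 and Camk4 at 34.3 as the 3 highest members. The ranks of Camk2d and Camk1d therefore depended on the length used.

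**Figure D3:**
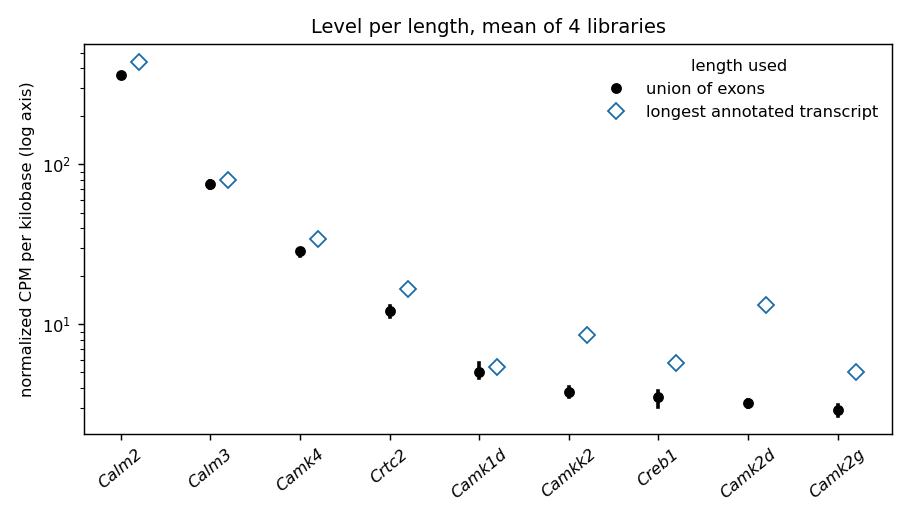
Normalized CPM per kilobase of exon (log axis) for the 9 members, ordered by mean. Black points are means of the 4 libraries with bars for their range, and open diamonds show the mean when the longest annotated transcript is used as the length. The means span 360.4 for Calm2 to 2.93 for Camk2g, the ranges of the 4 lowest overlap with their neighbours, and the Camk2d diamond stands well above its point.

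The genes around the cascade were taken as lists. Of all genes tested, 0.0963% were called, 7.34% had an unadjusted p under 0.05 by edgeR, and 37.6% had groups that did not overlap. The counts of each list are to be read against these shares. Of 14 other calmodulin and CaM kinase genes, including inhibitors and phosphatases of CaM kinases, 10 were in the table and 7 were tested. Of the 7, 3 lay above and 4 below zero, 0 were called, and 1, Camk2b, had an unadjusted p under 0.05, where the background is 7.34%. Groups did not overlap for 2 of the 7. Ppm1f, a phosphatase that acts on CaM kinases, was at 39.1 and 38.7 CPM with vehicle and 35.2 and 39.8 CPM with 5D. Of 12 calmodulin-binding buffers and scaffolds, 10 were tested, 7 above and 3 below zero (median 0.08 on the log2 scale), and 0 were called. An unadjusted p under 0.05 was reached by 1 of the 10, Add3, and groups did not overlap for 3. Iqgap1, a cytoskeletal scaffold and the most abundant of these, was at 672.5 and 656.1 CPM with vehicle and 651.9 and 669.0 CPM with 5D. The adducins, which cap actin filaments and bind calmodulin, were slightly higher in both 5D libraries than in both vehicle libraries. For Add3 the levels were 71.1 and 70.8 CPM with vehicle and 76.8 and 83.6 CPM with 5D (log2 fold change 0.18, adjusted p = 0.641), and for Add1 228.1 and 211.9 against 233.9 and 230.5 CPM (0.08, adjusted p = 0.824).

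The 6 other CREB family members and coactivators were all tested, with 3 above and 3 below zero and 0 called. An unadjusted p under 0.05 was reached by 0 of the 6, and groups did not overlap for 2. Ep300, a histone acetyltransferase recruited by CREB, was at 86.2 and 82.2 CPM with vehicle and 76.7 and 85.7 CPM with 5D, and the coactivator Crtc3 at 67.1 and 66.5 against 73.9 and 62.4 CPM. Both overlapped between groups. All 16 kinases and phosphatases that act on CREB or CRTC were tested, with 8 above and 8 below zero, and 0 were called. An unadjusted p under 0.05 was reached by 3 of the 16, each lower with 5D, where the background is 7.34%. Groups did not overlap for 8 of the 16, to be read against 37.6% of all tested genes. Rps6ka5, which encodes the CREB kinase MSK1, was at 82.4 and 77.4 CPM with vehicle and 69.8 and 67.2 CPM with 5D (log2 fold change -0.22, adjusted p = 0.552). Akt1 was at 488.1 and 475.9 against 460.5 and 428.0 CPM (-0.12, adjusted p = 0.621). Sik2, a salt-inducible kinase that holds CRTC proteins in the cytoplasm, was at 17.2 and 22.3 against 13.3 and 15.1 CPM (-0.47, adjusted p = 0.552). Without vehicle replicate 1, the Sik2 log2 fold change was -0.65, whereas without vehicle replicate 2 it was -0.28. Sik2, at 360 to 446 counts, shares 1429 exonic bases with Ppp2r1b on the opposite strand, which held up to 2731 counts in a library. Rps6ka5 shares 179 with Gm49703 on the same strand, which held at most 61 counts, against at least 1549 for Rps6ka5. How shared reads were handled is not given. The counts of Sik2, of Rps6ka5 and of the other listed genes that share exonic bases with another gene are uncertain to that extent. The most abundant of the list were the phosphatase subunit Ppp1ca, at 1105 and 1102 CPM with vehicle and 1034 and 1058 CPM with 5D (-0.08, adjusted p = 0.678), and Prkar1a, a regulatory subunit of protein kinase A, at 725.8 to 747.4 CPM.

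AMPK, the other substrate of CaMKK2, was followed through 10 tested genes for its subunits and for the LKB1 complex that also activates it. Of these, 7 lay above and 3 below zero, and 0 were called. An unadjusted p under 0.05 was reached by 1 of the 10, Strada, where the background is 7.34%. Groups did not overlap for 5 of the 10, to be read against 37.6% of all tested genes. Prkag1, a regulatory subunit, was at 103.8 and 108.2 CPM with vehicle and 109.3 and 104.7 CPM with 5D. Cab39, a scaffold of the LKB1 complex, was at 208.0 and 208.5 against 212.6 and 233.1 CPM (log2 fold change 0.10, adjusted p = 0.771). Strada, a pseudokinase of that complex, was at 34.5 and 28.4 against 26.3 and 25.6 CPM (-0.28, adjusted p = 0.645). It shares 158 exonic bases on the same strand with Ccdc47, which held up to 2986 counts in a library, against 568 to 801 for Strada. The Strada log2 fold change was -0.13 without vehicle replicate 1 and -0.41 without vehicle replicate 2. That of Cab39 was 0.03 without 5D replicate 2 and 0.16 without 5D replicate 1. CaM kinases also drive class IIa HDACs out of the nucleus and off MEF2 factors. Of 8 such genes 6 were tested, 2 above and 4 below zero, with 0 called. Mef2d alone, or 1 of the 6, had an unadjusted p under 0.05, and it alone had groups that did not overlap. Mef2d was at 57.4 and 52.8 CPM with vehicle and 47.1 and 44.3 CPM with 5D (-0.27, adjusted p = 0.552), and Mef2a at 30.8 and 39.9 against 38.9 and 39.8 CPM. Both 5D libraries were below both vehicle libraries for Strada and for Mef2d, and an antisense gene shares 531 exonic bases with Mef2d.

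**Figure D4:**
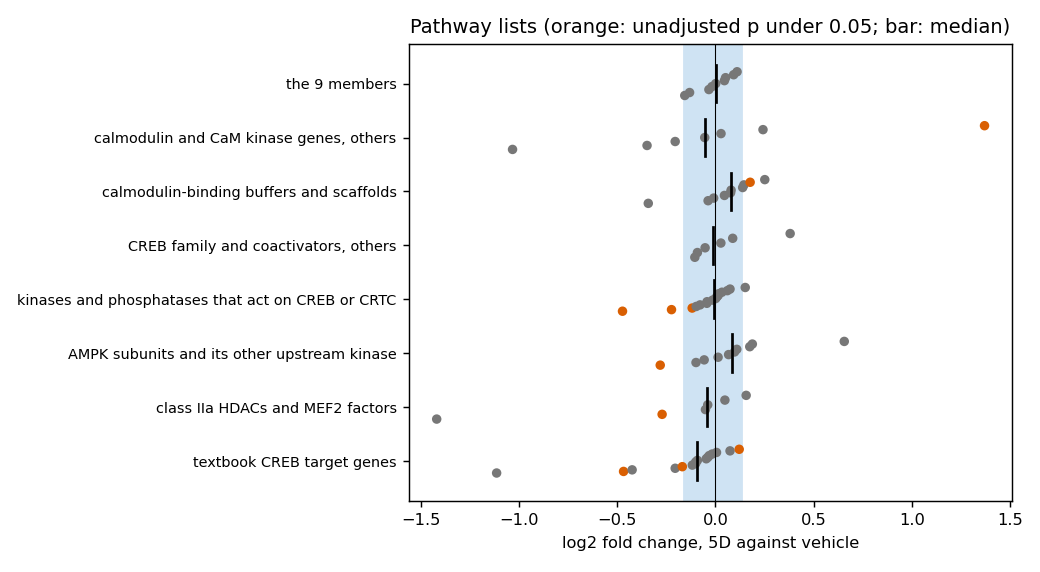
Log2 fold change of 5D against vehicle for each tested gene of the members and of the 7 surrounding lists, with the median of each list as a bar, genes at an unadjusted p under 0.05 in orange, and the quartile range of all tested genes shaded. Medians lie between -0.10 for CREB target genes and 0.08 for AMPK genes.

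Genes that textbooks list as CREB targets were read as an outlet of the cascade, although most of them answer to other factors too. Of 20 genes, 16 were tested, with 3 above and 13 below zero, and their log2 fold changes had a median of -0.10, against -0.0016 for all genes. None of the 16 was called by edgeR at an adjusted p under 0.05, where the background is 0.0963%, and 3 reached an unadjusted p under 0.05, where it is 7.34%. Groups did not overlap for 5 of the 16, to be read against the 37.6% of all tested genes. Junb, an AP-1 subunit, was at 249.2 and 252.4 CPM with vehicle and 226.6 and 219.9 CPM with 5D (log2 fold change -0.17, SE 0.050, adjusted p = 0.517). Nr4a1, an orphan nuclear receptor induced within minutes of stimulation, was at 18.7 and 25.7 against 14.5 and 17.5 CPM (-0.47, SE 0.17, adjusted p = 0.566). Without vehicle replicate 1, the Nr4a1 log2 fold change was -0.68, whereas without vehicle replicate 2 it was -0.23. Ccna2, the S-phase cyclin, was at 393.9 and 404.1 against 424.0 and 444.0 CPM (0.12, SE 0.046, adjusted p = 0.578), in the opposite direction to most of the list. Junb shares 173 exonic bases with Prdx2 and Ccna2 510 with Exosc9, both on opposite strands.

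The promoters of these genes were searched on both strands for the cAMP response element TGACGTCA and for its shorter form TGACG, which lies inside the longer one, from 250 bases before to 50 after the start site (RefSeq, GRCm38.p6). Among 27025 genes, 549 promoters (2.03%) held the longer and 6228 (23.0%) the shorter motif. Of the 9 members, 5 had an entry, none held the longer motif and 1, Calm3, the shorter. Of the 15 CREB target genes with an entry, 2 held the longer and 14 the shorter. These genes were listed as CREB targets beforehand, so their motif count is not evidence about CREB in these libraries. Among the kinases and phosphatases 13 had an entry, 1 of them with the longer motif and 11 with the shorter. The 3 longer motifs are printed below, 5′ to 3′ on the strand of the gene, with the element in capitals, to show which genes of the lists carry one. Areg, which encodes the epidermal growth factor family ligand amphiregulin, holds it 61 bases before its start site (window chr5:91139522-91139561, plus strand). For Dusp1, a MAP kinase phosphatase, the distance is 143 bases (chr17:26508592-26508631, minus strand), and for Prkar1a 49 bases (chr11:109650884-109650923, plus strand).
Areg: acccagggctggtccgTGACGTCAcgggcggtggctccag
Dusp1: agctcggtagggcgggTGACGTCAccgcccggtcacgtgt
Prkar1a: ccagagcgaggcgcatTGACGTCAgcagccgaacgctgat
None of these 3 genes passed the test. Areg was at 154.3 and 171.0 CPM with vehicle and 153.4 and 164.8 CPM with 5D (log2 fold change -0.03, adjusted p = 0.961). Dusp1 was at 24.6 and 20.6 against 22.9 and 22.6 CPM (0.0060, adjusted p = 0.997), and Prkar1a at 744.1 and 727.6 against 747.4 and 725.8 CPM (0.0014, adjusted p = 0.997). A match is a description of the letters in this window and shows no binding of CREB.

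With 2 libraries a group, each library carried much of the sign of a small difference. Leaving out each in turn changed the sign of the fold change in 5 of the 9 members (Calm2, Camk2d, Camk1d, Crtc2 and Creb1) and left that of Calm3, Camk4, Camk2g and Camkk2 as it was. These 4 are the genes whose groups did not overlap, which by itself fixes the sign. The log2 fold change of Calm3 then lay between 0.08 and 0.13, that of Camk4 between 0.04 and 0.15, that of Camk2g between -0.21 and -0.11 and that of Camkk2 between -0.18 and -0.09. Creb1 ranged from -0.09 to 0.21. In none of these fits did a member reach an unadjusted p under 0.05 by edgeR.

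**Figure D5:**
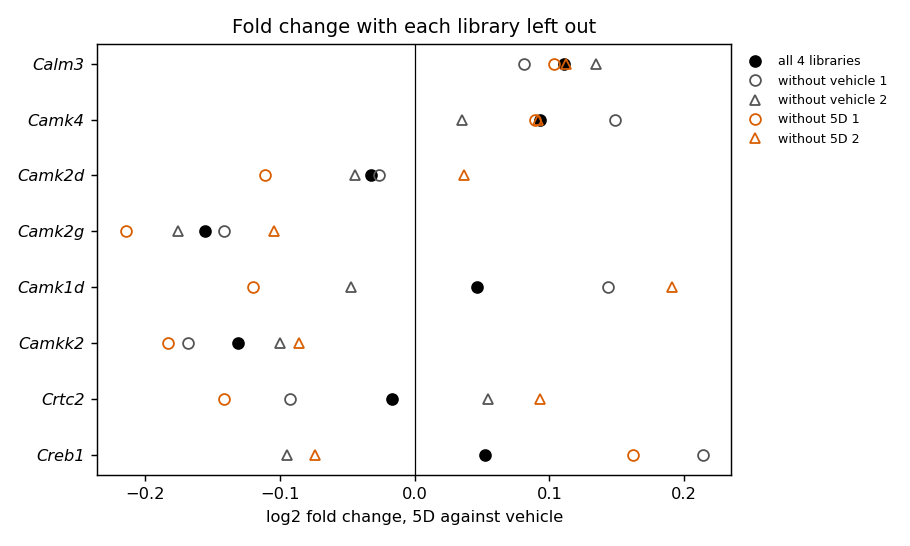
Log2 fold change of each member with all 4 libraries and with each library left out in turn (edgeR). Points of Calm2, Camk2d, Camk1d, Crtc2 and Creb1 fall on both sides of zero, those of the other members on one side.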

How the data were processed

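RNA sequencing libraries of sorted lung ILC2s (2 vehicle, 2 5D) were grouped by the titles and treatments in the labels. The authors aligned reads with STAR 2.6.1 to mm10 (GENCODE M21) and quantified genes in Partek, and CASAVA 1.8.2 is also in their processing notes. The deposited values are estimated counts per gene, not normalized, of which 50.4 to 53.2% are exactly whole in a library. Strand setting and handling of shared reads are not given in the sources used here.

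Estimated counts were rounded. Genes with a mean normalized count under 1 or a sum under 10 were removed, which left 17650 of 22554. Counts were scaled by upper quartile and tested with edgeR 4.0.16 (quasi-likelihood, two-sided, R 4.3.3). Benjamini-Hochberg adjustment ran over the 17650 genes, and calls were made at 0.05. Every adjusted p in the text comes from this fit unless another is named. Alternatives used TMM, DESeq2 size factors, DESeq2 1.42.0, limma-voom (limma 3.58.1), other filters, thinned counts, a replicate block and each library left out. Levels per kilobase used the union of annotated exons. Near-identical transcripts were sought with BLAST 2.17.0 (at least 150 bases at 95%). Promoters come from RefSeq, GRCm38.p6.

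The members and lists were chosen with earlier results of these data known. Sik1 and Crem stand in 2 lists each. Outside the members, the named genes are listed genes with an unadjusted p under 0.05, and the 2 most abundant of each list. Camkk1, Camk2a, Il2ra, Il5, Gata3, Il1rl1, Rora, Pecam1, Cd3g, Epcam, Areg, Dusp1 and overlapping or near-identical genes were named after their values were seen. The same holds for the other cell type markers given by name. An item named in the planned lists is not reported here and was left out of their counts.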

Additional observations from a re-analysis of the deposited data

How the results depend on the processing

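Under the 8 other settings of normalization, test, filter, block and depth, 0 of the 9 members changed sign and 0 were called, whereas leaving out a library turned the sign of 5 members. The number of genes called, 17, was 60 with DESeq2, 32 with limma-voom, 46 with no filter and 26 with filterByExpr. Leaving out each library gave 15 to 180 calls, with 180 without vehicle replicate 1 and 79 without vehicle replicate 2. In these fits the lone library of a group is assumed to vary like the others. Genes at an unadjusted p under 0.05 numbered 778 with DESeq2 against 1296. With TMM, 1 member (Calm3) was among them. The cause was not tested.

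The sources used here do not say whether same-numbered libraries were paired. Deviations of same-numbered libraries from their group means correlated at 0.0625 over 8723 genes, which cannot settle whether they were. With the replicate number as a block, 41 genes were called, and none was a member.

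With each library left out, the log2 fold change ranged from -0.020 to 0.018 for Calm2, -0.11 to 0.036 for Camk2d, -0.12 to 0.19 for Camk1d, -0.14 to 0.093 for Crtc2 and -0.095 to 0.21 for Creb1. Among the other named genes it turned for Camk1 (-0.19 to 0.29), Crtc3 (-0.10 to 0.14), Ep300 (-0.14 to 0.022), Iqgap1 (-0.029 to 0.0061), Mef2a (-0.025 to 0.35), Ppm1f (-0.15 to 0.029), Prkag1 (-0.021 to 0.043) and Prkar1a (-0.024 to 0.020). It kept its sign but moved by more than 1.5 times from its value with all libraries for Add1 (0.02 to 0.13), Add3 (0.11 to 0.23), Akt1 (-0.18 to -0.07), Cab39 (0.03 to 0.16), Strada (-0.41 to -0.13), Sik2 (-0.65 to -0.28) and Nr4a1 (-0.68 to -0.23). Ccna2 (0.086 to 0.15) and Mef2d (-0.33 to -0.21) moved by less than that from their values with all libraries. Iqgap1 was at 0.00066 with TMM and, with thinned counts, Prkar1a at -0.0055 and Camk1 at -0.019. List medians ranged from -0.14 to -0.04 for CREB targets and from 0.01 to 0.12 for AMPK genes, and crossed zero for the CREB family, the kinases and phosphatases, the HDAC and MEF2 genes and the other calmodulin and CaM kinase genes.

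Divided by the longest transcript, mean CPM per kilobase was 438.7 for Calm2, 80.0 for Calm3, 34.3 for Camk4, 16.6 for Crtc2, 13.2 for Camk2d, 8.53 for Camkk2, 5.74 for Creb1, 5.41 for Camk1d and 5.07 for Camk2g, since that length is the shorter. Without division by length, shares were 78.4% for Camk2d and 20.2% for Camk2g. Among the members, Camk2g had the fewest counts (391 to 500 a library). Camk2b rested on 14 to 52 counts.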
